A study of Homo sapiens with 6 samples.

Results

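The 34 genes described here are transcriptional targets of the tumor suppressor p53 and kinases of the DNA damage checkpoint, taken by name from the 57773 genes of a count table of HEK293 cells. HEK293 is a human embryonic kidney line carrying adenoviral genes. All 34 names were found in the table. Each of the 6 RNA libraries came from cells transiently transfected with plasmid, selected for 36 h with puromycin and grown in DMEM for 2 weeks in all, with 2 libraries per group. Cells of the control group (EV), whose treatment is labelled Cas9-EV, received an empty vector in equivalent amount, cells of the sgZNF146 group received plasmids (PX459) that express Cas9 and 4 guides against the zinc finger gene ZNF146, and cells of the sgZNF507 group received such plasmids with 4 guides against the zinc finger gene ZNF507. Guided groups were selected pools and not clones, so that edited and unedited cells were sequenced together, and fewer cells expressing a gene cannot be told apart from less RNA of it per cell. All groups shared transfection and puromycin. The label of EV names Cas9, but beyond it the sources used here do not say that the empty vector expressed the nuclease.

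p53 is a transcription factor that is held at a low level by the ubiquitin ligase MDM2. A double-strand break activates the kinase ATM, single-stranded DNA activates ATR, and these kinases act through CHEK2 and CHEK1 to stabilize p53 and to halt the cell cycle. Stabilized p53 binds paired 10-base half-sites in its target genes and raises their transcription, among them CDKN1A, which encodes the cyclin-dependent kinase inhibitor p21, and MDM2 itself, which closes a feedback loop. In HEK293 cells the adenoviral E1B protein binds p53 and blocks its activity as a transcription factor, while the E1A protein stabilizes it. The question asked of the data was whether cells carrying guides differed from EV cells in this program 2 weeks after transfection.

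The guides are shown because they define where the treated cells could be cut. The listed targets matched the reference genome GRCh37 as the strand opposite to the 20-base protospacers below, each of which is followed by an NGG motif, given in capitals. This reading was chosen after the adjacent bases were seen. Of the 8 listed targets, 6 hold 18 or 19 bases, and their protospacers were completed to 20 bases at the 3′ end from the genome. Targets 1 and 3 of ZNF507 are followed by TGG also as listed, so the other reading is possible for them.

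ZNF146 guide 1, chr19:36727435-36727454, minus strand: gaaaatgctcatgctcagtgAGG
ZNF146 guide 2, chr19:36727932-36727951, plus strand: catcacttattgtacatgtgAGG
ZNF146 guide 3, chr19:36727356-36727375, plus strand: gccagcagagaatttacagtGGG
ZNF146 guide 4, chr19:36727736-36727755, plus strand: gagtgtggaaaaaccttcagTGG
ZNF507 guide 1, chr19:32844237-32844256, plus strand: ggaggaacttgaagcccacgTGG
ZNF507 guide 2, chr19:32845605-32845624, plus strand: aagtttgtccggaaacaatgTGG
ZNF507 guide 3, chr19:32844219-32844238, plus strand: tattacatctagaagccaggAGG
ZNF507 guide 4, chr19:32845261-32845280, plus strand: gagttgacaagagccaacctGGG

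The 4 ZNF146 guides lie in coding sequence in exon 4 of the 4 exons of the canonical transcript, and the 4 ZNF507 guides in coding sequence in exon 3 of 7. In the 240843 exonic bases of the 34 genes, no guide read in this way had a site with 3 or fewer mismatches next to NGG. The closest such site had between 5 and 7 mismatches, depending on the guide.

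Sequences resembling the p53 site in the promoters of these genes are shown because p53 response is the subject of the list. RefSeq promoter sequences on GRCh38.p14, from 250 bases before to 50 bases after a transcription start, were present for 27 of the 34 genes. The p53 consensus half-site, which reads the same on both strands, occurred without mismatch in 6 of these 27 genes (22.2%) and in 8.06% of the 27305 genes with a promoter sequence. A pair of half-sites with at most 2 mismatches in total and at most 13 bases between them occurred in 5 of the 27 genes (18.5%) and in 3.62% of all genes with a promoter sequence. Half-sites are in capitals and the bases between them in lower case.

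DDB2, chr11:47214979-47214999, plus strand: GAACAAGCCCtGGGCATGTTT
AEN, chr15:88621306-88621325, plus strand: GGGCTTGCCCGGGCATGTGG
FAS, chr10:88991309-88991328, plus strand: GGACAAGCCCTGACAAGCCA
MDM2, chr12:68808923-68808942, plus strand: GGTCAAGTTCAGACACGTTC
FDXR, chr17:74872996-74873025, minus strand: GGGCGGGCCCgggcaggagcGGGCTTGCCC

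The DDB2 sequence had no mismatch to the consensus. Each of the other 4 had 2. A match is a description of the letters in this window and does not show that p53 binds there. A missing match likewise covers only this window and not the rest of a gene. The 27 genes had 43 windows and the 27305 genes 35116, and a gene with more windows has more room for a match. Since the genes were listed as p53 targets and checkpoint kinases, these shares do not test the list. No promoter entry was at hand for TNFRSF10A, TNFRSF10B, RRM2B, TP53INP1, FBXO22, GADD45A and PHLDA3.

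Libraries held between 22724439 and 28524025 counts. Markers of HEK293 cells were detected in every library for the 7 of 8 listed genes that matched the table, with vimentin between 1011 and 1146 CPM (counts scaled to a normalized library size of 1e+06). Of 8 markers of blood, endothelial and liver cells, 7 matched, and the hemoglobin gene HBB had 0 counts in all libraries, the T cell gene CD3E 0 to 1, the leukocyte gene PTPRC 1 to 5 and the liver gene ALB 1 to 6. ZNF507 stood at 71.9 and 75.4 CPM in EV, 71.2 and 73.2 in sgZNF146, and 47.2 and 48.7 in sgZNF507. Between sgZNF507 and EV its log2 fold change was -0.62 (SE 0.07), with an adjusted p of 0.00195 by the quasi-likelihood test of edgeR after Benjamini-Hochberg adjustment. ZNF146 stood at 115 and 105 CPM in EV, 99.1 and 103 in sgZNF146, and 88.3 and 101 in sgZNF507, and was not called in sgZNF146 (log2 fold change -0.13, adjusted p = 1.00 by the same test). Frameshifts can leave the amount of RNA as it was, and indels were not analysed here. Adjusted p-values below come from the same test and are adjusted over the whole set of tested genes against a threshold of 0.05. They rest on a spread between biological duplicates, of which there are 2 per group. In the main fit that spread was estimated from all 6 libraries together and in part shared across genes.

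RNA of each of the 34 genes was counted in every library, and whether p53 drove these levels was not tested. Summed over the 34 genes, levels lay between 1260.2 and 1302.2 CPM in the 6 libraries. Divided by the length of the canonical transcript so that genes can be compared, levels of single genes ran from 30.74 CPM per kb for AEN to 0.047 for EDA2R, around a median of 7.16 for the 14744 protein-coding genes tested. Of the 34 genes, only EDA2R was too low to be tested, with 6 and 6 counts in EV, 4 and 4 in sgZNF146, and 4 and 1 in sgZNF507. EDA2R is a receptor of the tumor necrosis factor family.

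**Figure D1:**
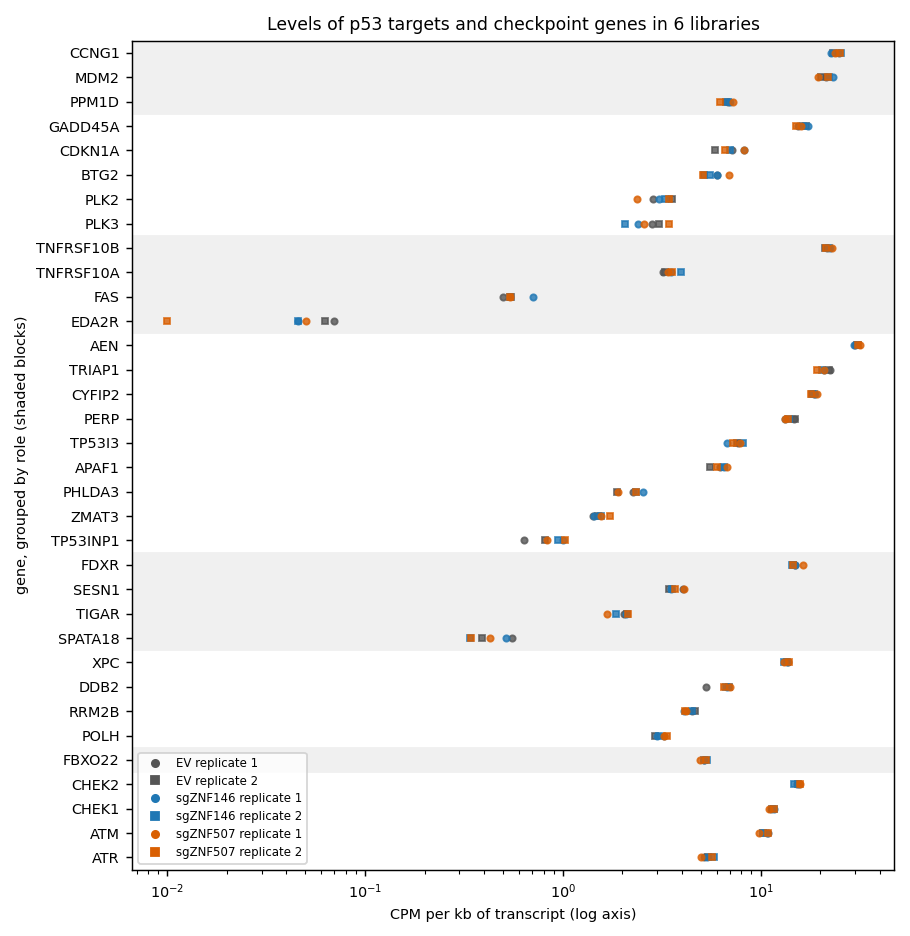
Level of each of the 34 genes in CPM per kb of transcript on a log axis, with genes in blocks by role, color for the group and circles and squares for replicates 1 and 2. The points of the 3 groups lie close together for nearly every gene, with AEN farthest to the right at a mean of 30.74 and EDA2R farthest to the left at 0.047.

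Among the feedback regulators of p53, MDM2 stood at 160 and 152 CPM in EV, 174 and 167 in sgZNF146, and 146 and 164 in sgZNF507, so that sgZNF146 lay above EV and sgZNF507 spanned it. Per length, its mean of 21.43 CPM per kb placed it at the 77.8th percentile of coding genes. PPM1D, a phosphatase that reverses checkpoint phosphorylation, ranged between 29.8 and 34.5 CPM over all libraries. CCNG1, a cyclin that brings a phosphatase to MDM2, ranged between 55.4 and 62.2 CPM.

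Among the genes of cell cycle arrest, CDKN1A stood at 15.2 and 12.4 CPM in EV, 17.5 and 14.8 in sgZNF146, and 17.4 and 14.1 in sgZNF507, and the 3 groups overlapped. Within each replicate number, CDKN1A was higher in both guided libraries than in the EV library. How many of all genes have this order was not computed, and it was looked at after the values were seen. At 7.19 CPM per kb, it lay at the 50.1th percentile of coding genes. PLK3, a stress-responsive polo-like kinase, stood at 6.58 and 7.19 CPM in EV, 5.59 and 4.8 in sgZNF146, and 6.03 and 8.03 in sgZNF507. Both sgZNF146 libraries were below the other 4. Its relative PLK2 ranged between 6.63 and 9.94 CPM, with the lowest and a high value both in sgZNF507. GADD45A, which acts in growth arrest and repair, ranged between 20.5 and 23.4 CPM, and BTG2, an inhibitor of proliferation, between 13.9 and 18.8 CPM.

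Death receptors differed widely from each other in level, with means of 21.98 CPM per kb for TNFRSF10B, 3.49 for TNFRSF10A and 0.563 for FAS. TNFRSF10B, a receptor for the death ligand TRAIL, ranged between 84.4 and 92.1 CPM, and the related TNFRSF10A stood at 8.63 and 8.82 CPM in EV, 9.49 and 10.6 in sgZNF146, and 9.15 and 9.62 in sgZNF507. All 4 guided libraries of TNFRSF10A were above both EV libraries, by a log2 fold change of 0.15. FAS, the receptor of the FAS ligand, was low, with 32 and 39 counts in EV, 46 and 35 in sgZNF146, and 32 and 40 in sgZNF507.

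Among the genes of apoptosis and survival, TP53INP1, a stress-induced protein of apoptosis and autophagy, stood at 3.57 and 4.55 CPM in EV, 5.63 and 5.32 in sgZNF146, and 4.64 and 5.72 in sgZNF507. All 4 guided libraries were above both EV libraries, with sgZNF507 replicate 1 close to EV replicate 2. PERP, a membrane protein of desmosomes and apoptosis, showed the opposite order, at 62.3 and 62.9 CPM in EV, 55.9 and 58.2 in sgZNF146, and 55.7 and 57.8 in sgZNF507. TRIAP1, an inhibitor of apoptosis, stood at 26 and 25.4 CPM in EV, 24.2 and 23.5 in sgZNF146, and 24.2 and 22.3 in sgZNF507, again with the guided libraries below. The exonuclease AEN ranged between 91.3 and 97.5 CPM, APAF1, the scaffold of the apoptosome, between 40.1 and 48.9, and the actin regulator CYFIP2 between 116 and 124. PHLDA3, an inhibitor of AKT, ranged between 5.17 and 7.01 CPM, the oxidoreductase TP53I3 between 11.2 and 13.4, and the RNA-binding protein ZMAT3 between 12.6 and 15.4.

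In metabolism and mitochondria, TIGAR, which restrains glycolysis, ranged between 13.7 and 17.6 CPM and SESN1, an inhibitor of mTOR signaling, between 19.6 and 23.4. FDXR, the mitochondrial ferredoxin reductase, ranged between 26.7 and 30.3 CPM. SPATA18, a protein of mitochondrial quality control, was low, with 61 and 48 counts in EV, 58 and 38 in sgZNF146, and 44 and 44 in sgZNF507. Among repair genes, XPC and DDB2 recognize damage in nucleotide excision repair and ranged between 48 and 51 and between 9.63 and 12.7 CPM. The lesion-bypass polymerase POLH ranged between 24.5 and 28.2 CPM, and the p53-inducible ribonucleotide reductase subunit RRM2B between 19.6 and 22.3. FBXO22, a ubiquitin ligase subunit set apart from the repair genes, ranged between 52.8 and 57.4 CPM.

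The checkpoint kinases varied little between libraries. ATM lay between 127 and 140 CPM, ATR between 40.7 and 47.6, CHEK1 between 45.5 and 48.3 and CHEK2 between 27.1 and 29.3. Across all 6 libraries, the ratio of the highest to the lowest level ran from 1.062 for CHEK1 to 1.673 for PLK3, and was under 1.5 in 30 of the 33 tested genes. The exceptions besides PLK3 were TP53INP1 and SPATA18, with ratios of 1.6 and 1.62.

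**Figure D2:**
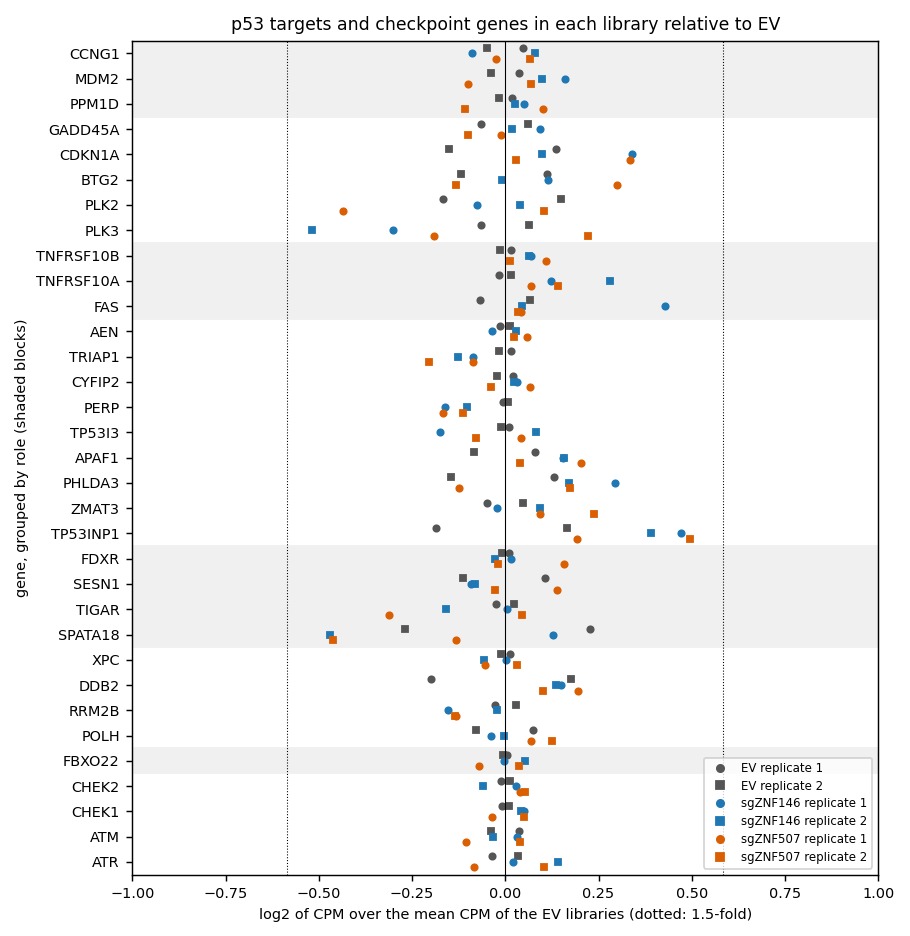
Level of each tested gene in each library, as the log2 of its CPM over the mean CPM of the EV libraries, with genes in blocks by role, color for the group, circles and squares for replicates 1 and 2, and dotted lines at a 1.5-fold difference. All points lie between the dotted lines, with the 4 guided libraries above both EV libraries for TP53INP1 and TNFRSF10A and below both for PERP and TRIAP1.

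Cells guided to ZNF146 were compared with EV cells to ask whether these genes differed after cutting in ZNF146. Of the 33 genes tested, 17 had a higher and 16 a lower fitted level, beside 49.5% of all genes with a higher one, with a median log2 fold change of 0.02 beside -0.00126 for all 22010 genes tested. None of the 33 was called by the quasi-likelihood test of edgeR after Benjamini-Hochberg adjustment, where 0% of all genes were called. DESeq2 also called 0 of the 33, but the share of all genes that DESeq2 called was not computed for any comparison. At an unadjusted p under 0.05, 2 genes (6.06%) passed beside 2.43% of all genes. These were TP53INP1, with a log2 fold change of 0.43 (SE 0.18, 95% interval 0.03 to 0.82, unadjusted p = 0.0355 in edgeR), and PLK3, with -0.41 (SE 0.17, 95% interval -0.78 to -0.04, unadjusted p = 0.0344 in edgeR), both with an adjusted p of 1.00. For CDKN1A the log2 fold change was 0.23 (SE 0.14, 95% interval -0.08 to 0.53) and for MDM2 0.13 (SE 0.07, 95% interval -0.02 to 0.28). Both libraries of one group lay above both of the other in 12 of the 33 genes (36.4%), 9 with sgZNF146 higher and 3 with it lower, beside 28.6% of all genes, 14% higher and 14.6% lower. The 9 were MDM2, PPM1D, TNFRSF10A, TNFRSF10B, TP53INP1, APAF1, CYFIP2, PHLDA3 and CHEK1, and the 3 were PLK3, PERP and TRIAP1.

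With the replicate number as a block, 0.15% of all genes passed the adjusted threshold in this comparison, and again 0 of the 33 did. At an unadjusted p under 0.05 under the block, 6 of the 33 passed (18.2%), beside 5.44% of all genes, of which 4 were higher (TP53INP1, MDM2, APAF1 and CDKN1A) and 2 lower (PLK3 and PERP), beside 2.82% and 2.62% of all genes. The adjusted p of CDKN1A was 0.83 and that of MDM2 0.794 under the block in edgeR.

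Cells guided to ZNF507 were compared with EV cells in the same way. Of the 33 genes, 20 had a higher and 13 a lower fitted level, beside 49% of all genes with a higher one, and the median log2 fold change was 0.02 beside -0.00321 for all genes. No gene of the 33 was called by edgeR, where 0.182% of all genes were called (0.55% under the block, again with 0 of the 33), none was called by DESeq2, and 0 of the 33 passed an unadjusted p of 0.05, beside 3.39% of all genes. The lowest unadjusted p-values in edgeR were 0.0687 for PERP, at a log2 fold change of -0.14 (SE 0.07), 0.0736 for TP53INP1, at 0.35 (SE 0.18), and 0.138 for TRIAP1, at -0.15, all with an adjusted p of 1.00. Under the block PERP and TP53INP1 passed an unadjusted p of 0.05, beside 7.66% of all genes. For CDKN1A the log2 fold change was 0.19 (SE 0.14, 95% interval -0.12 to 0.49). For MDM2 it was -0.01 (SE 0.07, 95% interval -0.16 to 0.14), and its sign turned without EV replicate 1 or sgZNF507 replicate 1, at 0.03 and 0.07. Groups did not overlap in 8 of the 33 genes (24.2%), 5 with sgZNF507 higher (AEN, CHEK2, TNFRSF10A, TP53INP1 and ZMAT3) and 3 with it lower (PERP, RRM2B and TRIAP1), beside 29.3% of all genes, 14% higher and 15.3% lower.

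**Figure D3:**
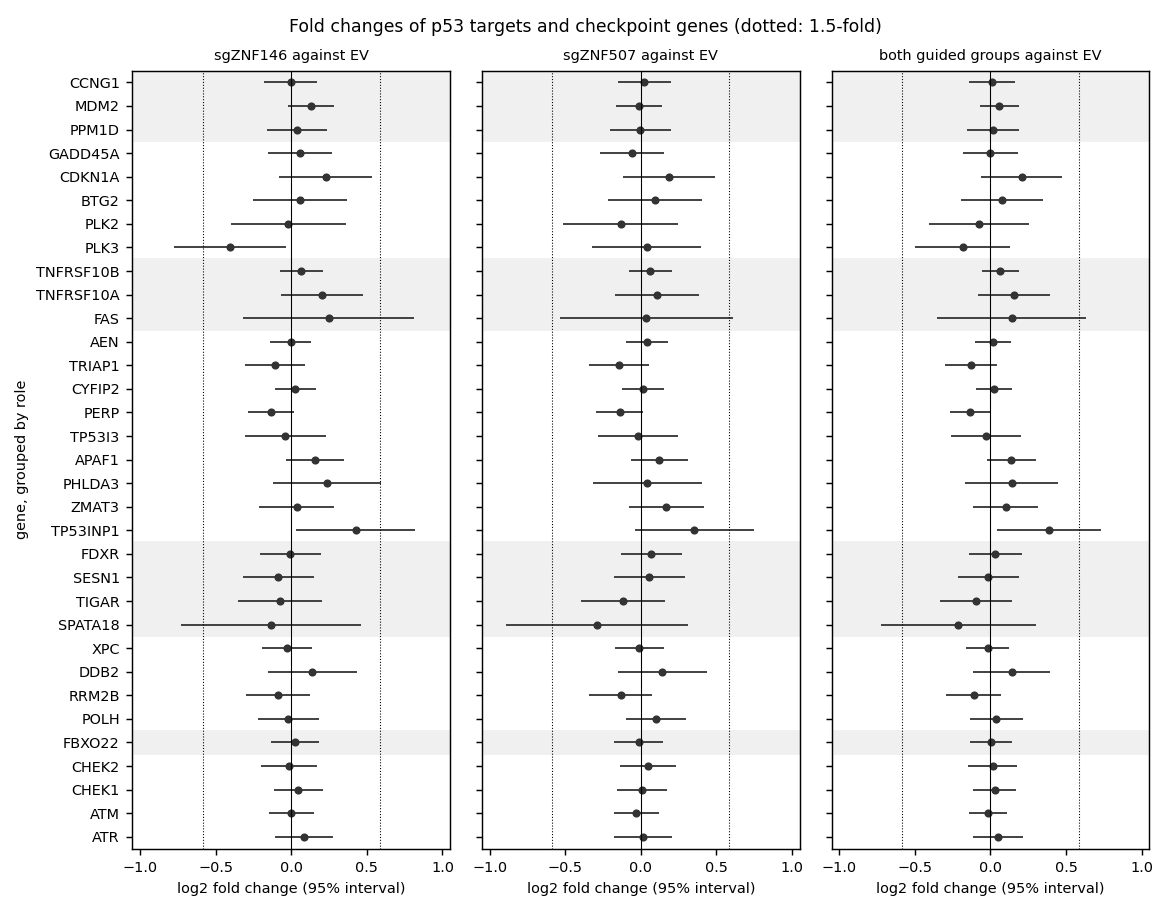
Log2 fold change of each tested gene (point) with its 95% interval (line) in sgZNF146, sgZNF507 and both guided groups against EV, where dotted lines mark a 1.5-fold difference. All points lie between the dotted lines, and intervals of PLK3, PHLDA3, FAS, TP53INP1 and SPATA18 pass them in sgZNF146 against EV.

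Both guided groups together were set against EV, since both received guides and EV did not. The comparisons of each guided group with EV share the same EV libraries, and this one uses them again. Of the 33 genes, 21 had a higher and 12 a lower fitted level, beside 48.4% of all genes with a higher one, with a median log2 fold change of 0.02 beside -0.00354 for all genes. No gene of the 33 was called by edgeR or DESeq2, where edgeR called 0.0136% of all genes (0.332% under the block, again with 0 of the 33). At an unadjusted p under 0.05 in edgeR, 2 genes passed (6.06%), beside 2.59% of all genes. They were TP53INP1, with a log2 fold change of 0.39 (SE 0.16, 95% interval 0.05 to 0.73, unadjusted p = 0.0292 in edgeR), and PERP, with -0.14 (SE 0.06, unadjusted p = 0.0432 in edgeR), each with an adjusted p of 1.00. Under the block CDKN1A and APAF1 joined them, making 4 of 33 beside 5.86% of all genes.

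For the p21 gene CDKN1A, the guided groups together differed from EV by a log2 fold change of 0.21 (SE 0.12, 95% interval -0.06 to 0.47), and for MDM2 by 0.06 (SE 0.06, 95% interval -0.07 to 0.19). All 4 guided libraries lay on one side of both EV libraries in 4 of the 33 genes (12.1%), beside 10.3% of all genes, 4.95% higher and 5.36% lower. TP53INP1 and TNFRSF10A were the 2 higher ones, and PERP and TRIAP1 the 2 lower ones. An exact permutation test of 4 libraries against 2 cannot give a two-sided p below 0.0667, and one of 2 against 2 none below 0.333.

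**Figure D4:**
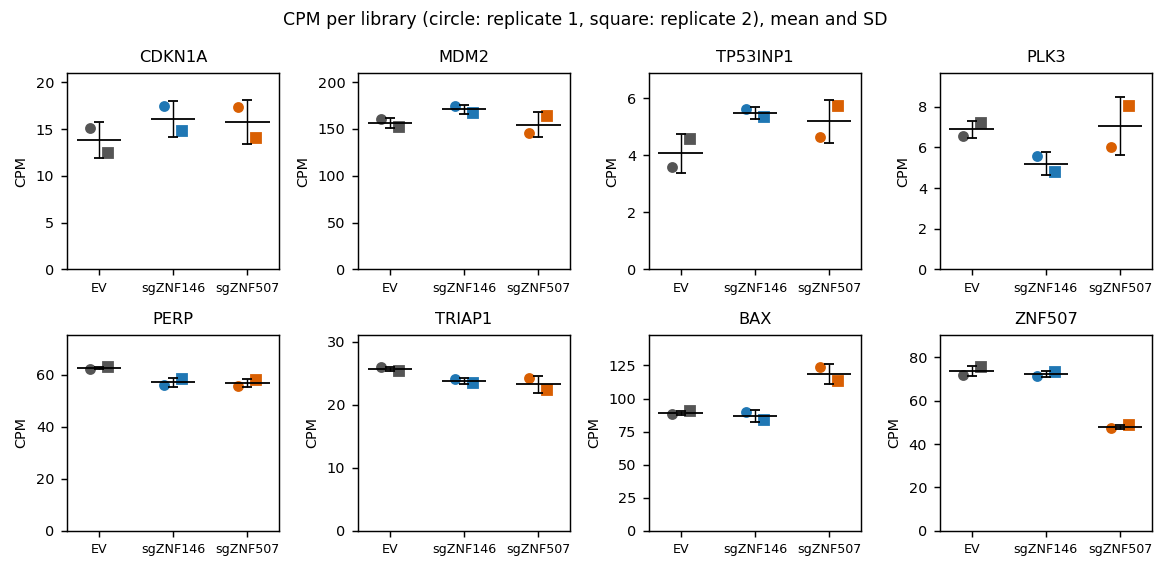
CPM of 8 genes in each library, 1 panel per gene with its own axis starting at 0, where circles and squares are replicates 1 and 2, horizontal lines are group means and error bars are SDs over 2 libraries. Guided libraries sit above EV for TP53INP1 and below it for PERP and TRIAP1, the groups overlap for CDKN1A, and BAX is highest and ZNF507 lowest in sgZNF507.

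The guided groups were also compared with each other. Of the 33 genes, 12 had a higher and 21 a lower fitted level in sgZNF507 than in sgZNF146, beside 48.8% of all genes with a higher one, at a median log2 fold change of -0.03 beside -0.00403 for all genes. No gene of the 33 was called in sgZNF507 against sgZNF146 by edgeR or DESeq2, where edgeR called 0.173% of all genes (0.891% under the block, again with 0 of the 33). One passed an unadjusted p under 0.05 in edgeR, beside 4.03% of all genes. This was PLK3, with a log2 fold change of 0.44 (SE 0.17, 95% interval 0.07 to 0.82, unadjusted p = 0.0227 in edgeR, adjusted p = 1.00), and MDM2 joined it under the block, beside 8.68% of all genes. For MDM2 the log2 fold change was -0.14 (SE 0.07, 95% interval -0.29 to 0.01), and for CDKN1A it was -0.04, a sign that turned without sgZNF146 replicate 1 or sgZNF507 replicate 2. Groups did not overlap in 8 of the 33 genes, 5 with sgZNF507 higher (CHEK2, PLK3, POLH, SESN1 and ZMAT3) and 3 with it lower (FAS, GADD45A and MDM2), beside 32.1% of all genes, 15.5% higher and 16.5% lower.

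A missed threshold does not show that levels were alike, so the intervals give what the libraries allow. In no comparison did a gene of the 33 differ by a fitted 1.5-fold or more. The 95% interval lay within 1.5-fold in either direction for 28 of 33 genes in sgZNF146 against EV and for 30 of 33 in each of the other 3 comparisons. Among all tested coding genes, this held for 79.7% in sgZNF146 against EV and 79.4% in sgZNF507 against EV. It held for 83.3% with both guided groups against EV and 78.9% in sgZNF507 against sgZNF146. Among all genes tested the shares were 60.7%, 60.2%, 65.3% and 59.5% in the same order. Within 2-fold lay the intervals of all 33 genes in all 4 comparisons, beside 17439, 17328, 18614 and 17266 of all 22010 genes. Genes whose interval passed 1.5-fold were PLK3, PHLDA3, SPATA18, TP53INP1 and FAS in sgZNF146 against EV, and SPATA18, TP53INP1 and FAS in sgZNF507 against EV. Precision followed depth, with an SE of 0.26 for FAS at 32 to 46 counts and of 0.07 for MDM2 at 3357 to 4748 counts in sgZNF146 against EV.

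By role, the largest median was that of the 3 tested death receptors in sgZNF146 against EV, with a log2 fold change of 0.20 and all 3 above 0. In sgZNF507 against EV their median was 0.06, again with all 3 above 0. The 4 genes of metabolism and mitochondria were all below 0 in sgZNF146 against EV, at a median of -0.08, and split evenly in sgZNF507 against EV, at -0.03. The 4 checkpoint kinases had medians of 0.02 and 0.01 in these comparisons. No gene of these groups was called. The 5 genes with a paired p53 site in the promoter sequence shown above had log2 fold changes with both guided groups against EV of 0.14 for DDB2 (SE 0.12), 0.02 for AEN (SE 0.05), 0.14 for FAS (SE 0.23), 0.06 for MDM2 (SE 0.06) and 0.03 for FDXR (SE 0.08), and none of them was called.

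Genes around this program were taken as lists. Of 17 regulators and family members of p53, none was called by edgeR or DESeq2 in any comparison. The lowest unadjusted p-values of that list belonged to HIPK2, a kinase of p53 (log2 fold change -0.21 in sgZNF146 against EV, unadjusted p = 0.00521 in edgeR), to the ribosomal protein gene RPL11, whose product binds MDM2 (-0.17 in sgZNF507 against EV, unadjusted p = 0.0195 in edgeR), and to the p53 relative TP63 (0.91 in sgZNF507 against EV at 13 to 32 counts per library, unadjusted p = 0.0323 in edgeR).

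Of 32 other p53 targets, 30 were tested and 1 was called by edgeR without the block. In the comparisons with that call, edgeR called 0.182% of all genes (sgZNF507 against EV) and 0.173% (sgZNF507 against sgZNF146). BAX, a pore-forming activator of apoptosis, stood at 88.2 and 90.3 CPM in EV, 89.9 and 83.5 in sgZNF146, and 124 and 113 in sgZNF507. It rose in sgZNF507 by a log2 fold change of 0.41 against EV (SE 0.07, edgeR adjusted p = 0.0366) and of 0.45 against sgZNF146 (SE 0.07, edgeR adjusted p = 0.0204). The call against EV was lost without any one of EV replicate 1, EV replicate 2, sgZNF146 replicate 1, sgZNF146 replicate 2 or sgZNF507 replicate 1, at edgeR adjusted p-values of 0.468, 0.344, 0.0657, 0.0674 and 0.303. It was also lost when edgeR was fitted on only the 4 libraries compared (0.0762), while the edgeR adjusted p ranged down to 1.15e-06 under the block. DESeq2 without the block called BAX on all 6 libraries and on the libraries compared. Its adjusted p-values were 0.00193 and 0.00879 against EV, and 0.000222 and 0.00266 against sgZNF146. The log2 fold change against EV lay between 0.343 and 0.482 under all 15 alternatives. The call against sgZNF146 was lost without sgZNF146 replicate 1, sgZNF146 replicate 2 or sgZNF507 replicate 1, at 0.179, 0.318 and 0.137 in edgeR. Under the block DDIT4, an inhibitor of mTOR signaling, was also called in sgZNF507 against EV (log2 fold change 0.34, edgeR adjusted p = 1.00 without and 0.00406 with the block), as was CCNK, the cyclin of CDK12 (-0.22, edgeR adjusted p = 0.941 without and 0.0352 with the block). With the block in DESeq2, neither was called, and BAX was. The list's median log2 fold change was 0.01 in sgZNF146 against EV and 0.06 in sgZNF507 against EV. At an unadjusted p under 0.05 in edgeR, 3 of the 30 (10%) passed in sgZNF507 against EV, beside 3.39% of all genes. Of these, 2 were higher and 1 lower. Under the block 7 passed there (23.3%), 6 higher and 1 lower, beside 7.66% of all genes. In sgZNF146 against EV 0 passed, beside 2.43% of all genes, and under the block 1 did (3.33%), beside 5.44%.

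None of the 24 genes of break sensing and checkpoint signaling, the 21 genes of double-strand break repair or the 19 mitotic genes that p21 is known to lower was called by edgeR without the block or by DESeq2, and their medians lay between -0.03 and 0.03 in all 4 comparisons. At an unadjusted p under 0.05 in edgeR, 0 of the first list passed in any comparison. From the repair list, XRCC2, a gene of homologous recombination, passed in sgZNF146 against EV (log2 fold change -0.27, unadjusted p = 0.00817 in edgeR). Under the block it was called lower there, at an edgeR adjusted p of 0.0165, and with both guided groups against EV, at 0.0453, but in neither with the block in DESeq2. The end-joining factor NHEJ1, at -0.46, and the mitotic kinase CDK1, at -0.20, passed unadjusted in sgZNF507 against sgZNF146, with edgeR adjusted p-values of 1.00. The histone gene H2AX, whose product is phosphorylated at breaks, had log2 fold changes of 0.11 and -0.01 in sgZNF146 and sgZNF507 against EV. The checkpoint clamp gene RAD9A had -0.10 and -0.16 and its loader RAD17 -0.16 and -0.17. RAD54L, of the same pathway as XRCC2, had -0.08 and 0.06, the proliferation marker MKI67 0.10 and -0.02, and the centromere histone gene CENPA -0.11 and -0.12, none of them called. Of the 19 mitotic genes, 14 had a higher fitted level in sgZNF146 against EV and 10 in sgZNF507 against EV, beside 49.5% and 49% of all genes. With both guided groups against EV 15 did, beside 48.4%, and in sgZNF507 against sgZNF146 7 did, beside 48.8%. In sgZNF146 and sgZNF507 against EV, 8 and 9 of the 24 break-sensing genes were higher, and 10 and 8 of the 21 repair genes.

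**Figure D5:**
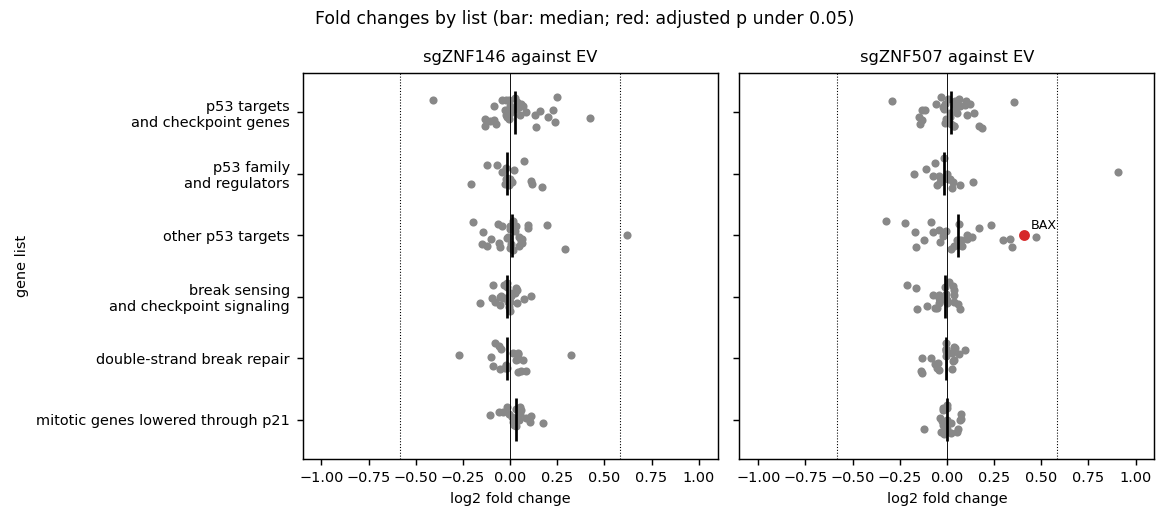
Log2 fold changes of the genes of each list in sgZNF146 and sgZNF507 against EV, 1 point per gene, with a bar at the median of the list, dotted lines at a 1.5-fold difference and called genes in red. Medians lie between -0.02 and 0.06, and BAX in sgZNF507 against EV is the only red point.

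Some of these counts may hold reads of other genes. Exons of 19 of the 34 genes overlap those of another gene in the table, 4 of them on the same strand and 17 on the opposite strand. The 4 on the same strand are MDM2, PHLDA3, ATR and CHEK1, the last with STT3A, and no strand setting could separate reads there. Overlaps on opposite strands include TP53INP1 with NDUFAF6 and PLK3 with DYNLT4. The library kit and the mapping kept strand, but the strand setting of the counting is not given in the sources used here, so reads of such partners cannot be told apart. PERP, TRIAP1, CCNG1, POLH and CHEK2 have annotated pseudogenes with which they may share reads. CDKN1A has neither an overlapping gene nor a named pseudogene in this annotation.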

How the data were processed

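RNA of 6 HEK293 libraries was sequenced as paired-end reads of 50 bases after ribosomal depletion with a strand-specific kit. The authors clipped reads, discarded ribosomal reads with Bowtie, mapped the rest to hg19 with TopHat2 and counted them over Ensembl genes with featureCounts. What the authors deposited are raw counts, neither normalized nor pooled, and without molecular identifiers, so PCR duplicates were counted. Gene names, lengths and positions came from GENCODE on GRCh37, which matched 96.1% of 57773 identifiers. A fold change is relative to the other genes of a library.

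Counts were filtered with filterByExpr (22010 genes left), normalized by TMM and fitted in edgeR 4.0.16 under R 4.3.3 with glmQLFit over all 6 libraries and a term for group. Contrasts were tested with glmQLFTest, the Benjamini-Hochberg adjustment covered every gene tested, and intervals are 95% intervals of the log2 fold change. Standard errors are approximations derived from the F statistic. CPM uses TMM-adjusted library sizes. FAS and DDIT4 had no canonical transcript and were given the length of their longest coding transcript. The steps were tested on simulated counts. DESeq2 1.42.0, other normalizations, filters, samples and the replicate block were alternatives. Deviations from group means of libraries with the same replicate number correlated at 0.191, 0.242 and 0.215 over genes for the 3 pairs of groups, all above 0.1, and the numbers, which come from the sample titles, were taken to pair the libraries. What a number stands for is not given.

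The 34 genes, the other lists and the tests were chosen with earlier results of these data known. Levels are given for all 34. Fold changes and tests are given for CDKN1A and MDM2, for those with an unadjusted p under 0.05, or else for the 3 with the lowest p, and in other lists for called genes and the 3 with the lowest p. Other fold changes are named by promoter site, by role or by separation of the groups, and were chosen after their values were seen.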

Additional observations from a re-analysis of the deposited data

Results flagged for a closer look

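BAX and ZNF507 differed between the guided groups in the direct test of that difference. The log2 fold change of sgZNF507 against sgZNF146 was 0.45 for BAX (edgeR adjusted p = 0.0204) and -0.59 for ZNF507 (edgeR adjusted p = 0.00307). ZNF507 is the gene targeted in one of the groups. No gene of the 34 was singled out in this way. Groups of 2 libraries are too small for a test of outlying libraries.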

How the results depend on the processing

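The count of 0 called genes among the 33 tested held under all 58 alternatives over the 4 comparisons. The share of all genes called was computed only for the main edgeR fit and its replicate block. Intervals within 1.5-fold numbered 26 to 29 of 33 under the alternatives in sgZNF146 against EV, 26 to 30 in sgZNF507 and in both guided groups against EV, and 27 to 30 in sgZNF507 against sgZNF146. Intervals within 2-fold numbered 30 to 33 in sgZNF146 against EV and 31 to 33 in each of the other 3 comparisons. Leaving out 1 library at a time moved the median log2 fold change of these genes between 0.00457 and 0.0365 in sgZNF146 against EV, 0.0047 and 0.05 in sgZNF507 against EV, 0.000796 and 0.0361 with both guided groups against EV, and -0.032 and 0.0202 in sgZNF507 against sgZNF146. The spread of this median between replicates was 0.0157 (SD). Single fold changes that turned sign did so without 1 library, namely MDM2 in sgZNF507 against EV (-0.0893 to 0.0676), CDKN1A in sgZNF507 against sgZNF146 (-0.198 to 0.121) and BAX in sgZNF146 against EV (-0.097 to 0.00895).

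With the replicate block in edgeR, genes called in the other lists numbered 1 in sgZNF146 against EV, 3 in sgZNF507 against EV, 1 with both guided groups against EV and 3 in sgZNF507 against sgZNF146, beside 0, 1, 0 and 1 without it. The block changed no other call among the genes named, apart from XRCC2, DDIT4 and CCNK, and with the block in DESeq2 BAX was the only gene of these lists called. In the last comparison DDIT4 (log2 fold change 0.27) and CCNK (-0.24) were called with the block at edgeR adjusted p-values of 0.0397 and 0.012. The count was 0 in sgZNF507 against EV when edgeR was run on the libraries compared, and 0 to 1 there and in sgZNF507 against sgZNF146 without 1 library. The causes were not tested. Depth limits FAS, SPATA18 and EDA2R most.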

Other observations

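CDKN1A, BTG2 and SPATA18 were lower and PLK2 was higher in replicate 2 than in replicate 1 in all 3 groups. For CDKN1A the log2 difference was -0.287 in EV, -0.243 in sgZNF146 and -0.305 in sgZNF507. A difference shared by the groups is taken up by the replicate block, so it does not measure the error of a fold change between groups. Within replicate 1, CDKN1A stood at 17.5 CPM in sgZNF146 and 17.4 in sgZNF507 against 15.2 in EV. Within replicate 2, it stood at 14.8 and 14.1 against 12.4. The share of all genes with such an order was not computed. Differences between replicates had the same sign in all 3 groups for 13 of the 33 tested genes (39.4%), beside 39.6% of all genes.

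XRCC2 and HIPK2, the genes with the lowest p-values of their lists in sgZNF146 against EV, both lie on chromosome 7. Among tested coding genes within 5 Mb of XRCC2, 51 of 56 had a lower fitted level in sgZNF146 than in EV, with a median log2 fold change of -0.176, and 22 of 56 in sgZNF507, with a median of 0.0212. Within 5 Mb of HIPK2, 46 of 54 were lower in sgZNF146, with a median of -0.182, and 32 of 54 in sgZNF507, with a median of -0.0155. Of all 14744 tested coding genes, 50.8% were lower in sgZNF146 than in EV, with a median of -0.00167. In sgZNF507 50.5% were, with a median of -0.00114. The neighbors were examined after the values of these 2 genes were seen, neighboring genes are not independent, and whether the position on the chromosome has a part in these values was not tested.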
